A study of Sus scrofa with 61 samples.

Results

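The growth arrest and DNA repair genes MGMT, GADD45B, CDKN1A and CCND2 were followed through the liver of pigs whose mothers received a low protein (LP) diet in gestation. All probe-sets that the platform annotation, or the probe list of the study's qRT-PCR assays, assigns to these symbols were taken, which gave 5 probe-sets for 4 genes out of 23999 probe-sets and 6765 named genes on the array. MGMT (Entrez gene 100155050), CDKN1A (100152215) and CCND2 (397162) have 1 probe-set each. GADD45B (100621090) has 2, of which the one in the qRT-PCR assay list is called the first. The probe-sets were taken by symbol, whatever their values; the 4 genes themselves were picked with earlier results of these data known.

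Liver RNA was measured with Affymetrix GeneChip arrays of the porcine genome, 1 animal per array, at 94 days post conception (dpc, 16 fetuses) and at 1 (14 piglets), 28 (15 weaners) and 188 (16 young adults) days post natum (dpn). All 61 animals were of German Landrace background and all were exposed to the LP diet before birth, so stage is the only comparison made here; offspring of adequately fed dams were not analysed here. The fetuses came from an experiment with Caesarean section and the postnatal animals from a second experiment with induced farrowing, so experiment and birth cannot be told apart in any comparison with 94 dpc. Animals of 28 and 188 dpn had been cross-fostered to sows on adequate diets, fasted overnight and killed by electronarcosis, males among them were castrated, and the 1 dpn piglets were killed by injection with no fast stated. The study took pairs of littermates, light and heavy ones at 94 dpc and 1 dpn, but the labels name no litter, sex or weight, and animals of one litter were therefore treated as independent. Littermates may also span the postnatal stages, since litters were divided over them at birth.

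MGMT encodes the methyltransferase that takes alkyl groups off guanine in a single, self-consuming step and so reverses alkylation damage without cutting the DNA. GADD45B is a small stress-inducible protein of the growth arrest and DNA damage family that acts through kinase signalling, and in liver it is known as an early response gene of injury and regeneration. CDKN1A, or p21, is an inhibitor of cyclin-dependent kinases that p53 and other signals switch on and that holds cells in G1. CCND2 is a D-type cyclin and works in the opposite sense, as the partner of the kinases CDK4 and CDK6 in G1. In the newborn liver hepatocytes still divide, and division becomes rare in the adult.

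All 12 hepatocyte markers lay above the array median at every stage. Array medians of the deposited signal, which is scaled so that each array has the same trimmed mean (500.1 to 500.2), fell from 167 in fetuses to 150 in piglets, 118 in weaners and 102 in young adults (medians over animals). The choice of scaling therefore bears on small changes between stages, adjacent ones included. It is given below wherever it changed a call of MGMT, GADD45B, CDKN1A or CCND2. Counts of genes in the pathway and marker lists also moved with the scaling, and only some of those shifts are given. Each array correlated with the others of its stage at a mean r of 0.859 to 0.907, and no 2 arrays were identical. The difference between 3' and 5' control probes stood apart in 9 arrays.

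Between 94 dpc and 1 dpn, 4 of the 5 probe-sets changed, MGMT, CDKN1A and CCND2 upwards and the first GADD45B probe-set downwards. A probe-set was called when its P in limma and its Storey q over all probe-sets tested were both at or below 0.05. Of 12227 probe-sets tested, 67.7% were called, 26.1% higher and 41.6% lower at 1 dpn, so a call as such was common. Between 1 and 28 dpn the same 4 probe-sets changed again, against 70.4% of 12114 probe-sets called, 29% higher and 41.4% lower. CDKN1A and CCND2 fell, GADD45B rose and MGMT rose further. Between 28 and 188 dpn, with 54% of 10959 probe-sets called (18.3% higher, 35.7% lower), CCND2 fell and GADD45B rose by its first probe-set, while MGMT and CDKN1A did not pass.

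**Figure D1:**
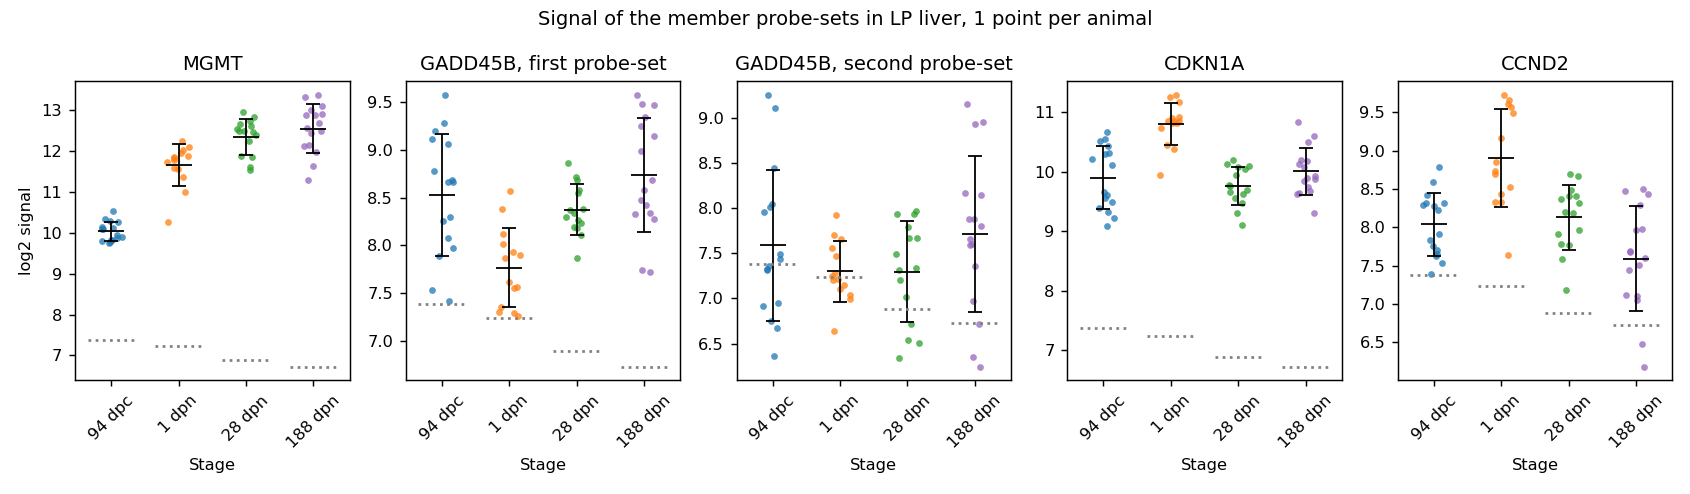
Log2 signal of the 5 probe-sets (vertical axis, a separate range per panel) in each animal (points) at the 4 stages (horizontal axis). Black bars are the mean ± SD and dotted grey lines the mean array median of the stage; MGMT climbed to 28 dpn, whereas CDKN1A and CCND2 were highest at 1 dpn.

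MGMT had the widest course of the 4 genes. At 94 dpc its signal ran from 862 through a median of 1035 to 1493 (16 fetuses). At 1 dpn it ran from 1231 through 3571 to 4853 (14 piglets). At 28 dpn the range was 2958 to 7980 with a median of 5711, and at 188 dpn it was 2485 to 10642 with a median of 6277. Of the piglets, 13 of 14 lay above the highest fetus, and the lowest piglet, at 1231, lay inside the fetal range. All weaners and young adults lay above all fetuses. Animals of 28 and 188 dpn overlapped widely. Values of no member were free of overlap between adjacent stages, as was the case for 7.72%, 9.91% and 1.37% of the probe-sets tested in the successive periods.

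The rise of MGMT at birth was 1.61 ± 0.14 (log2, later minus earlier, ± SE; 95% interval 1.33 to 1.90; limma P = 6.26e-13, q = 4.19e-12), a 3.06-fold higher mean. This change was larger in size than that of 95.6% of all probe-sets tested. From 1 to 28 dpn MGMT rose by another 0.70 ± 0.17 (limma P = 0.0003, q = 0.000118), or 1.62-fold, and 13 of 15 weaners were above the median piglet. From 28 to 188 dpn the difference was 0.20 with a 95% interval of -0.17 to 0.57 (limma P = 0.289). From 94 dpc to 188 dpn the mean was 5.70-fold higher (2.51 ± 0.16, limma P = 3.08e-17), without overlap; 26.4% of the 12921 probe-sets tested did not overlap between these stages, and 83.7% were called, 28.6% higher and 55% lower. The values at 28 dpn did not overlap those at 94 dpc either (2.31 ± 0.13, limma P = 8.52e-19), which was so for 23.3% of the probe-sets of that comparison (83% called, 29.7% higher and 53.3% lower). The levels thus followed the order of age, in which only the last neighbours were not separated by the test. With array medians subtracted the difference from 1 to 188 dpn was 1.40 in place of 0.90, and no alternative changed a call of MGMT.

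MGMT varied little among fetuses, with an SD of 0.24 (log2); 23.3% of the probe-sets present at 94 dpc had a lower one. The SD was 0.51 in piglets, 0.44 in weaners and 0.59 in young adults, where 83.5% of the probe-sets present had a lower SD. At 188 dpn the highest animal was 4.28-fold above the lowest.

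The alkyl damage list holds 5 genes linked to the direct reversal of such damage, of which ALKBH3, a demethylase of alkylated bases, was the other one with a named probe-set. ALKBH3 rose by 0.46 ± 0.13 (limma q = 0.000517) to 1 dpn and by 0.55 ± 0.10 (limma q = 3.54e-06) to 28 dpn. Over all probe-sets tested, 26.1% and 29% were called higher in these periods. As MGMT is the only other gene of the list with a probe-set, the list adds a single gene. ALKBH3 was not tested from 28 to 188 dpn because its spread was too small to pass the filter.

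GADD45B moved the other way at birth. The first probe-set had a signal of 171 to 765 with a median of 405 in the fetuses. In the piglets it was 153 to 380 with a median of 215, and 13 of 14 animals were above their array median. It was 233 to 466 with a median of 324 at 28 dpn and 211 to 761 with a median of 397 at 188 dpn. The piglets were low as a group: 4 of 14 lay below the lowest fetus and none above the median fetus, yet the ranges overlapped. Weaners were the most alike, with a 2.00-fold range, against 4.49-fold among fetuses and 3.60-fold among young adults.

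By this probe-set GADD45B fell by 0.77 ± 0.19 (log2) from 94 dpc to 1 dpn (limma P = 0.000382, q = 0.000189), a 1.70-fold lower mean. It rose by 0.61 ± 0.13 from 1 to 28 dpn (limma P = 4.7e-05, q = 2.27e-05), with 15 of 15 weaners above the median piglet; with array medians subtracted the rise was 0.96. From 28 to 188 dpn it rose by 0.36 ± 0.16 (limma P = 0.0336, q = 0.0186), a call that was lost with Benjamini-Hochberg adjustment (adjusted p = 0.0664), without the intensity filter and when the 9 arrays with outlying control probes were dropped (P = 0.0561). The lowest level was at 1 dpn. Levels of 94 dpc did not differ beyond their spread from those of 28 dpn (-0.15, 95% interval -0.51 to 0.20) or of 188 dpn (0.21, -0.22 to 0.64), although the latter difference was 0.66 and called after quantile normalisation and 0.86 and called with array medians subtracted. From 1 to 188 dpn the level rose by 0.98 ± 0.19 (limma P = 1.04e-05; 1.48 with array medians subtracted; 75.9% of probe-sets called, 28.9% higher and 47% lower).

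The second GADD45B probe-set was dimmer and passed in none of the 6 pairs of stages. Its signal was 82.5 to 613 (median 169) at 94 dpc, 99.6 to 243 (median 151) at 1 dpn, 80.9 to 250 (median 162) at 28 dpn and 75.8 to 573 (median 213) at 188 dpn. It lay above the array median in 10 of 16 fetuses, 7 of 14 piglets, 11 of 15 weaners and 13 of 16 young adults. The differences were -0.29 (95% interval -0.76 to 0.18) to 1 dpn, -0.00 (-0.35 to 0.34) to 28 dpn and 0.42 (-0.09 to 0.93) to 188 dpn. Of these, the middle one turned to 0.34 and was called with array medians subtracted, the last was called after either rescaling (0.53 and 0.58), and the first was called at -0.41 when low signals were raised to the array median. The probe-sets of GADD45B thus gave different calls in all 3 periods and from 1 to 188 dpn, and whether these differences themselves differ was not tested.

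**Figure D2:**
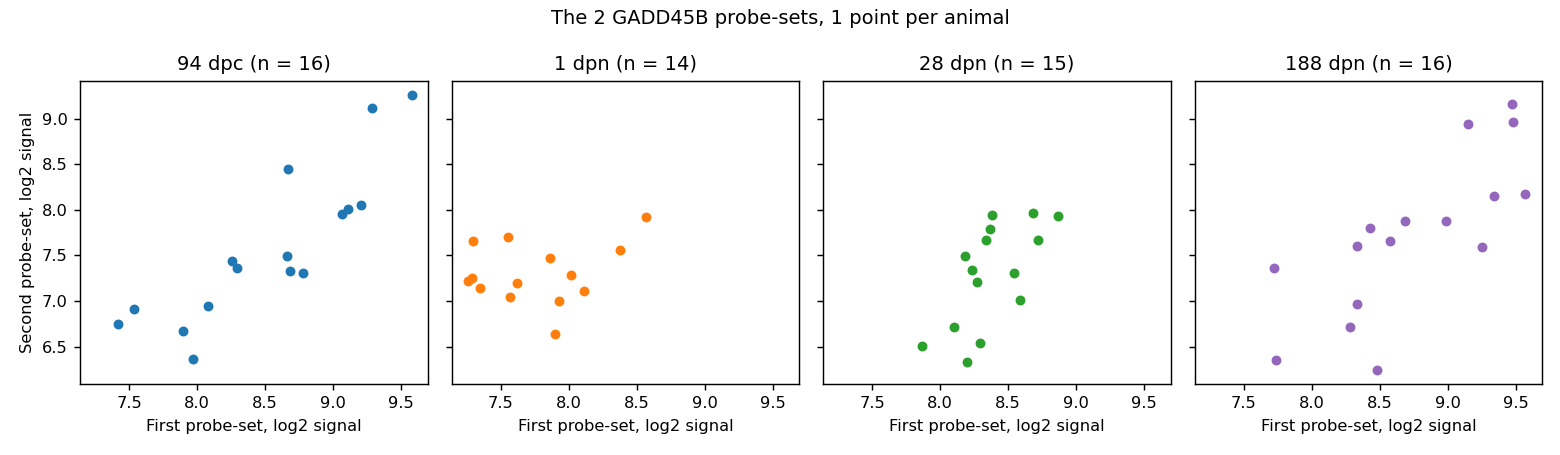
Log2 signal of the second GADD45B probe-set (vertical axis) against the first (horizontal axis), 1 point per animal and 1 panel per stage, on shared axes. The points lie along a line at 94 dpc (r = 0.86) and 188 dpn (r = 0.76) and less so at 1 dpn (r = 0.22), where the second probe-set spans a narrower range than at the other stages.

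Animal by animal, however, both probe-sets of GADD45B varied together. Within stages r was 0.86 in the 16 fetuses, 0.22 in the 14 piglets, 0.65 in the 15 weaners and 0.76 in the 16 young adults, and r was 0.72 over all arrays once stage means were subtracted. The 2 values of a point come from the same array and the same gene, so these correlations describe the agreement of the probes.

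The other GADD45 genes had their highest means in the fetuses. GADD45G fell from a mean log2 signal of 11.42 to 9.35 between 94 dpc and 1 dpn, by 2.06 ± 0.36 (limma q = 2.45e-06), the largest fall of its list. GADD45A, which was named here after its values were seen, fell from 10.55 to 9.46, by 1.09 ± 0.17 (limma q = 5.17e-07). After birth neither passed in the main comparison. GADD45A differed by -0.22 ± 0.15 to 28 dpn and by 0.14 ± 0.24 to 188 dpn. GADD45G differed by 0.25 ± 0.15 to 28 dpn, which was called at 0.32 after quantile normalisation, at 0.59 with array medians subtracted, at 0.32 with array weights and at 0.32 without the least correlated array of each stage, and by 0.07 ± 0.16 to 188 dpn.

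CDKN1A was highest in the newborn. Its signal was 542 to 1628 (median 958) in fetuses and 981 to 2512 (median 1846) in piglets. It was 548 to 1172 (median 868) in weaners and 635 to 1833 (median 965) in young adults. Of the piglets, 11 of 14 lay above the highest fetus and 14 of 14 above the median fetus; 9 of 15 weaners and 9 of 16 young adults lay below the lowest piglet.

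CDKN1A rose by 0.90 ± 0.16 at birth (limma P = 4.95e-06, q = 3.9e-06), or 1.87-fold, and fell by 1.04 ± 0.13 to 28 dpn (limma P = 3.51e-09, q = 5.24e-09), to a 2.06-fold lower mean. The fall was larger in size than 80.1% of the changes of all probe-sets tested. From 28 to 188 dpn the difference was 0.24 ± 0.13 (95% interval -0.02 to 0.51, limma P = 0.073), which was called as a rise after quantile normalisation (0.28) and with array medians subtracted (0.40). Fetuses did not differ beyond their spread from weaners (-0.14, -0.46 to 0.18) or from young adults (0.10, -0.23 to 0.43), but with array medians subtracted these differences were 0.35 and 0.75, both called. From 1 to 188 dpn CDKN1A fell by 0.80 ± 0.14 (limma P = 2.65e-06), a call that was lost, at -0.29, with array medians subtracted. The order with the deposited scaling was thus 28 dpn, 94 dpc and 188 dpn, not separated from each other, and then 1 dpn.

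CCND2, the D-type cyclin, shared the peak at 1 dpn. Its signal was 168 to 443 (median 271) at 94 dpc and 200 to 851 (median 443) at 1 dpn. It was 146 to 416 (median 295) at 28 dpn and 72.8 to 362 (median 200) at 188 dpn, where 14 of 16 animals were above their array median. Of the piglets, 7 of 14 were above the highest fetus, and the lowest piglet lay inside the fetal range. Of the young adults, 5 of 16 lay below the lowest weaner and 8 of 16 below the lowest piglet.

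CCND2 rose by 0.87 ± 0.19 at birth (limma P = 5.51e-05, q = 3.33e-05), or 1.83-fold. It fell by 0.78 ± 0.19 from 1 to 28 dpn (limma P = 0.000331, q = 0.00013), by 1.72-fold, and the fall was 0.43 and still called with array medians subtracted. In the last period, from 28 to 188 dpn, it fell by 0.54 ± 0.20 (limma P = 0.0109, q = 0.00737), which was lost after quantile normalisation (-0.36) and with array medians subtracted (-0.38). From 1 to 188 dpn the mean was 2.49-fold lower (fell by 1.32 ± 0.23, limma P = 3.37e-06; -0.81 with array medians subtracted). Weaners and fetuses did not differ beyond their spread (0.09, 95% interval -0.21 to 0.39), but this difference was called at 0.47 after quantile normalisation and at 0.58 with array medians subtracted. Young adults were lower than fetuses by the deposited scaling (-0.45 ± 0.19, limma P = 0.0281), whereas the difference turned to 0.11 and 0.20, not called, under the same rescalings. CCND2 was accordingly highest at 1 dpn under each of the 3 scalings, and the place of 188 dpn below 94 dpc held only without rescaling.

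**Figure D3:**
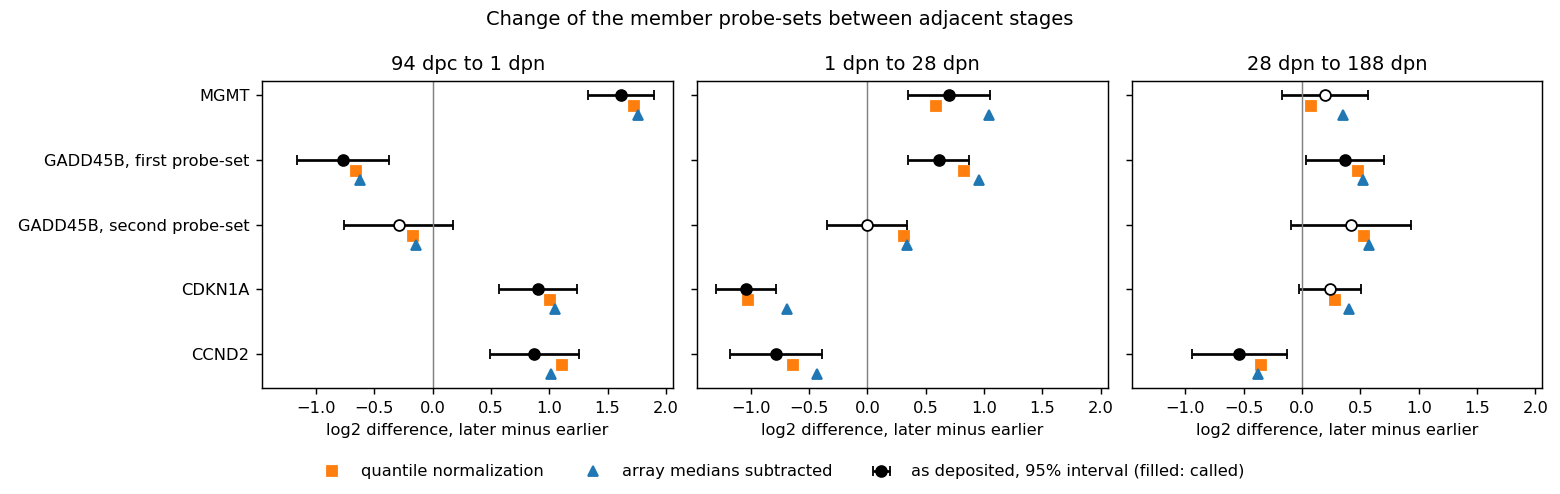
Differences of the 5 probe-sets between adjacent stages (horizontal axis, log2, later minus earlier; rows are probe-sets). Black circles are the deposited scaling with its 95% interval, filled where called; orange squares are quantile-normalised values and blue triangles values with array medians subtracted, which lie on the same side of 0 as the circles except for the second GADD45B probe-set from 1 to 28 dpn.

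Signals of other cells and of RNA quality moved along with stage. The summed signal of 7 macrophage markers had a median of 18853 at 94 dpc and 25561 at 1 dpn, then 60299 (28 dpn) and 42741 (188 dpn), and its range at 28 dpn (45971 to 68747) lay above that at 1 dpn (20376 to 37693). The summed signal of 8 erythroid markers had a median of 13882 (3050 to 32098) in fetuses, when blood is formed in the liver. It was 2347 (1195 to 4249) in piglets, 3764 in weaners and 4122 in young adults. RHCE and KLF1 were no longer above the array median after birth. From 1 to 28 dpn 2 of 5 tested erythroid markers rose and 1 fell (60% called beside 70.4% over all probe-sets). To 188 dpn 1 of 5 rose and 0 fell (20% beside 54%). In that period 2 rose after quantile normalisation and 3 with array medians subtracted. The summed signal of 7 granulocyte markers had medians of 12760, 4935, 1180 and 962 in the order of the stages. That of the 12 hepatocyte markers had stage medians of 443682 to 583174, with single animals from 332487 to 691714. Of 10 hepatocyte markers tested, 5 rose and 1 fell at birth (60% called beside 67.7% over all probe-sets). With array medians subtracted 7 rose and 0 fell of 11, and after quantile normalisation 3 and 0 of 5. From 1 to 28 dpn 2 rose and 6 fell of 10 (80% beside 70.4%). This balance hung on the scaling, with 4 higher and 2 lower of 6 with array medians subtracted and 2 and 1 of 4 after quantile normalisation. Of 8 lymphocyte markers none was above the array median at 94 dpc or 1 dpn and 4 were at 28 dpn and at 188 dpn. Summed endothelial markers had medians of 5961 to 8459 and summed stellate and fibroblast markers of 10405 to 14246 over the stages. The 3' minus 5' difference of beta-actin (log2) had a median of 2.13 in fetuses and 1.75 in piglets, and then of 3.91 in weaners and 3.98 in young adults. That of EF1A had medians of -0.02, -0.16, 0.39 and 0.40 in the order of the stages. GAPDH did not share this course, with medians of 0.98, 0.34, 0.76 and 0.63 and thus its highest value in fetuses. The part of these values in the results for MGMT, GADD45B, CDKN1A and CCND2 was not tested, and in whole tissue fewer cells of a type and less RNA per cell cannot be told apart. Leaving out the 9 arrays with outlying control probes changed no call of MGMT, CDKN1A or CCND2. Those arrays were outlying within their own stage, so leaving them out says nothing on the 3' to 5' shift between stages.

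The pathways around the 4 genes were read from lists, with 1 probe-set per gene. Among the GADD45 genes and p53 targets of growth arrest, 14 of 14 tested genes were called at birth, 5 higher and 9 lower, beside 67.7% of all probe-sets called (26.1% higher, 41.6% lower), with a median change of -0.78 beside -0.16 over all probe-sets tested. From 1 to 28 dpn 7 rose and 6 fell of 15 (86.7% called beside 70.4%; median 0.23 beside -0.14). The counts were 8 and 4 with array medians subtracted. BTG1, an antiproliferative factor, rose by 0.87 ± 0.15, and its relative BTG2 fell by 1.61 ± 0.14 (limma q = 7.67e-12). In the last period, from 28 to 188 dpn, 3 rose and 1 fell of 14 (28.6% called beside 54%; median 0.11 beside -0.14), and BTG2 then rose by 0.83 ± 0.17; 5 rose after quantile normalisation and 6 with array medians subtracted. CDKN1A, with its rise at 1 dpn, had the largest rise of this list at birth, as GADD45G had the largest fall.

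The other inhibitors of cyclin-dependent kinases did not all follow CDKN1A. At birth 3 of 5 tested inhibitors rose, CDKN1A among them, and 80% were called beside 67.7% over all probe-sets (26.1% higher). The only one that fell was CDKN1B (p27), by 0.84 ± 0.11 (limma q = 9.69e-09). With the probe-sets of a gene averaged, 3 of 4 rose and 0 fell, so the fall of CDKN1B was not called there. From 1 to 28 dpn CDKN1B rose by 0.41 ± 0.10 while CDKN1A fell, and CDKN2C, an inhibitor of CDK4 and CDK6, fell by 1.83 ± 0.35. In the last period, from 28 to 188 dpn, CDKN1B rose again, by 0.30 ± 0.12 (limma q = 0.00966). There 1 rose and 2 fell of 4, or 75% called beside 54% over all probe-sets. The period before had 1 and 2 of 5, or 60% beside 70.4%. In both periods 2 genes of the list were called higher under either rescaling and 0 when the probe-sets of a gene were averaged. The calls of CDKN1B thus rest on its probe-set of highest mean in each period. Genes called lower in the last period were 1 after quantile normalisation and 0 with array medians subtracted.

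Of the G1 cyclins, kinases and E2F-RB genes only 6 of 23 had a named probe-set and 3 were tested. At birth CCND2 was the one that rose, and 2 fell, or 100% called beside 67.7% over all probe-sets. TFDP2, a partner of E2F factors, fell by 1.57 ± 0.23. From 1 to 28 dpn RBL2, a relative of RB linked to quiescence, rose by 0.87 ± 0.17 while CCND2 fell (66.7% called beside 70.4%). With array medians subtracted 2 genes of this list rose and 1 fell. After 28 dpn 2 fell, including CCND2 (66.7% called beside 54%), and none did after quantile normalisation or with array medians subtracted. Proliferation markers showed 4 of 13 higher and none lower at birth (median 0.34), or 30.8% called beside 67.7% over all probe-sets (26.1% higher). The nucleotide reductase subunit RRM2 rose most (1.21 ± 0.27), and 9 of 13 markers were higher under either rescaling. These markers fell in 12 of 13 cases to 28 dpn (median -1.20), or 92.3% called beside 70.4% (41.4% lower), and TOP2A fell by 1.67 ± 0.32. To 188 dpn they fell in 12 of 12 cases, or 100% called beside 54% (35.7% lower). The median was -1.86, or -1.08 with low signals raised to the array median, and RRM2 fell by 3.34 ± 0.26 (limma q = 7.36e-12). MGMT, which rose in the first 2 of these periods, did not pass in the third.

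**Figure D4:**
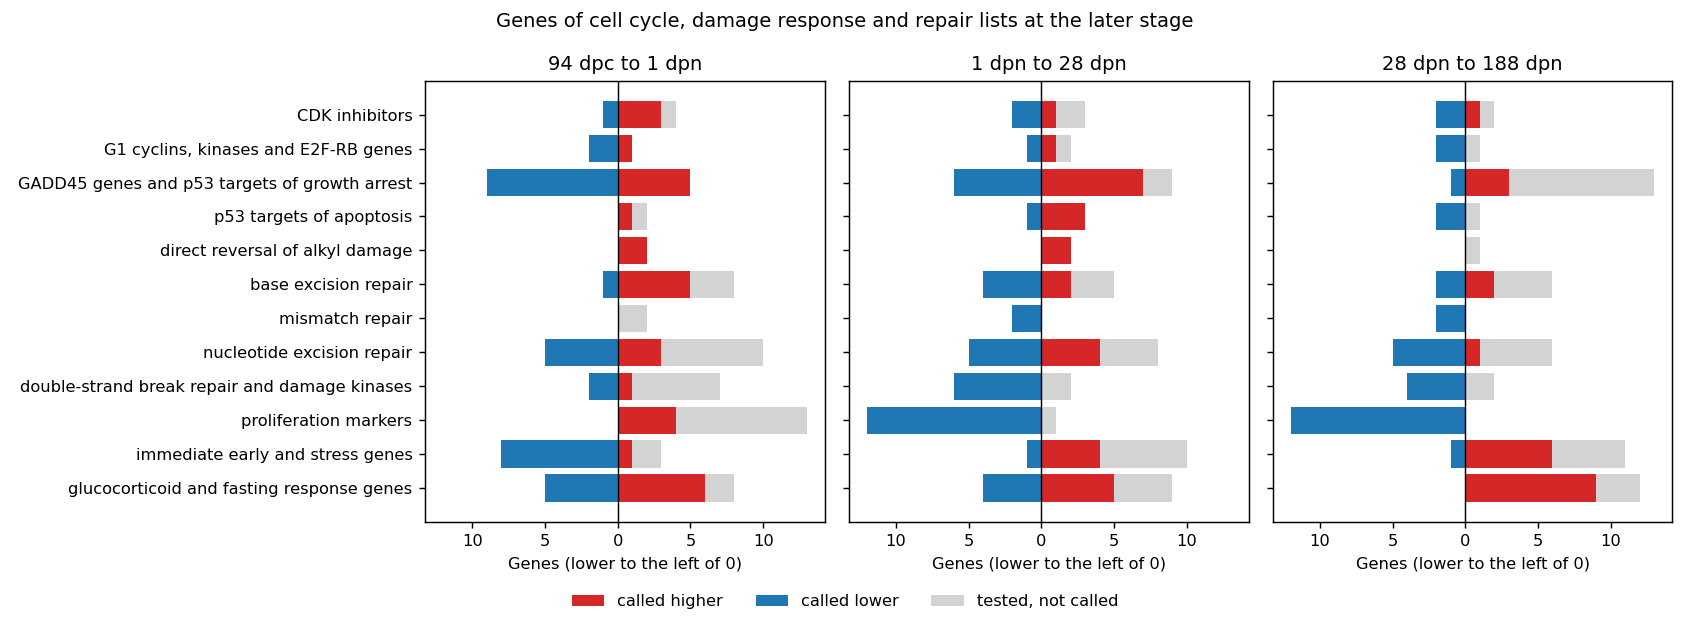
Number of genes of each list (rows) called higher (red, to the right of 0), called lower (blue, to the left) or tested and not called (grey) at the later stage, for the 3 pairs of adjacent stages. Proliferation markers and double-strand break repair genes lie mostly to the left after 1 dpn, and growth arrest genes lie on both sides.

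Other repair routes were mixed. Base excision repair genes were 5 higher and 1 lower of 9 at birth (median 0.33; 66.7% called beside 67.7% over all probe-sets), where the endonuclease APEX2 rose by 1.45 ± 0.13 and APEX1 fell by 0.61 ± 0.11. From 1 to 28 dpn 2 rose and 4 fell of 9, or 66.7% called beside 70.4% over all probe-sets (median -0.22; 3 and 1 with array medians subtracted), where the glycosylase NEIL1 rose by 1.12 ± 0.12 and the flap nuclease FEN1 fell by 1.30 ± 0.18. After 28 dpn 2 rose and 2 fell of 8, or 50% called beside 54% over all probe-sets (median 0.10). The counts were 4 and 2 with array medians subtracted, and FEN1 again fell by 0.53 ± 0.15. Of 9 mismatch repair genes 2 were tested, and neither passed at birth, beside 67.7% called over all probe-sets. Both fell in the later periods (1 in the last under either rescaling), beside 41.4% and 35.7% called lower over all probe-sets. PCNA, which also serves replication, fell by 1.14 ± 0.22 and then by 1.07 ± 0.17.

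Nucleotide excision repair genes were 3 higher and 5 lower of 15 at birth (median 0.15), a share called of 53.3% beside 67.7% over all probe-sets tested, and RPA3 rose by 0.44 ± 0.13 and ERCC8, of the transcription-coupled branch, fell by 1.22 ± 0.10 (limma q = 1.15e-12). The genes of this list were 4 higher and 5 lower of 13 to 28 dpn, or 69.2% called beside 70.4% (median -0.16). The TFIIH subunits GTF2H4 and GTF2H3 went apart there: GTF2H4 rose by 0.81 ± 0.26 and GTF2H3 fell by 1.20 ± 0.14. To 188 dpn the nucleotide excision repair genes were 1 higher and 5 lower of 11, or 54.5% called beside 54% (median -0.37). The damage sensor XPC rose by 0.31 ± 0.10. With array medians subtracted the counts of higher and lower genes were 7 and 3, 8 and 3, and 4 and 3 in turn, so the balance of this list hung on the scaling. Double-strand break repair genes and damage kinases were 1 higher and 2 lower of 9 at birth (2 and 0 under either rescaling). This was 33.3% called beside 67.7% over all probe-sets. These genes fell in 6 of 8 cases to 28 dpn, or 75% called beside 70.4% (median -0.79 beside -0.14), and MRE11 fell by 1.63 ± 0.25. With array medians subtracted 2 were higher and 4 lower of 9 (median -0.33). To 188 dpn 4 of 6 fell, or 66.7% called beside 54% (median -0.38). In that period 1 fell after quantile normalisation and 2 with array medians subtracted. RAD54L, a recombination motor, rose by 0.84 ± 0.20 at birth and fell by 1.17 ± 0.31 from 28 to 188 dpn. Among p53 targets of apoptosis 1 of 2 rose at birth, BID by 1.17 ± 0.13 (50% called beside 67.7%). To 28 dpn 3 rose, BAX by 2.21 ± 0.28, and 1 fell of 4, or 100% called beside 70.4% (median 0.69). To 188 dpn 2 of 3 fell (1 under either rescaling), or 66.7% called beside 54% (median -0.41).

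Several of the named list genes averaged under the array median where they were low, so that their differences rest on dim signals. With low signals raised to the array median the difference at birth was -0.88 for TFDP2 and 0.36 for RAD54L. It was -0.68 for CDKN2C, -0.46 for MRE11, 0.90 for BAX and 0.42 for GTF2H4 from 1 to 28 dpn, and from 28 to 188 dpn it was -2.89 for RRM2 and -0.60 for RAD54L. All of these were still called.

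Immediate early and stress genes moved at birth in the direction of GADD45B. Of 11 tested, 8 fell and 1 rose, or 81.8% called beside 67.7% over all probe-sets (median -0.90 beside -0.16). EGR1 fell by 1.82 ± 0.28 (limma q = 2.07e-07) while NFKBIA rose by 0.37 ± 0.13. From 1 to 28 dpn 4 rose, NFKBIA by 1.65 ± 0.12, and 1 fell of 11, or 45.5% called beside 70.4% (median 0.25). With array medians subtracted 8 rose and 0 fell. From 28 to 188 dpn 6 rose and 1 fell of 12, or 58.3% called beside 54% (median 0.25). Glucocorticoid and fasting response genes were 6 higher and 5 lower of 13 at birth, or 84.6% called beside 67.7% (median -0.20). The counts were 6 and 3 under either rescaling and 6 and 1 with probe-sets averaged, and TXNIP fell by 0.93 ± 0.13. To 28 dpn the genes of this list were 5 higher and 4 lower of 13, or 69.2% called beside 70.4% (median 0.10). The counts were 7 and 2 with array medians subtracted, and 3 and 7 with probe-sets averaged. There PCK1 of gluconeogenesis rose by 0.77 ± 0.18 and IGFBP1 fell by 1.36 ± 0.32. To 188 dpn 9 of 12 rose and none fell, or 75% called beside 54% (median 0.86). KLF15 rose by 1.29 ± 0.12 (limma q = 1.94e-10).

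The genes whose signal ran most like each member were sought among 5083 named genes by Pearson's r over the 61 arrays. This is a description of likeness, since all genes of an array share its RNA and stage differences enter every r. For MGMT they were ETFB, an electron transfer flavoprotein subunit of mitochondria (r = 0.94), MIEN1 (0.93) and LOC100522725 (0.92). With stage means subtracted these were 0.64, 0.47 and 0.62. For the first GADD45B probe-set they were INSIG1, a regulator of sterol synthesis (0.66), RGS2 (0.65) and the phosphatase DUSP1 (0.64), and 0.44, 0.43 and 0.48 within stages. For the second they were the immediate early genes FOS (0.63), ZFP36 (0.59) and again DUSP1 (0.55), and here the values within stages were nearly as high, at 0.61, 0.56 and 0.55. For CDKN1A they were the glycolytic enzyme ENO1 (0.72), the amino acid transporter chain SLC3A2 (0.69) and CKB (0.66), and 0.37, 0.42 and 0.30 within stages. For CCND2 they were the galactokinase GALK1 (0.74), PTPMT1 (0.69) and PLOD3 (0.69), and 0.48, 0.30 and 0.45 within stages.

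Within a stage the 4 genes showed no relation to each other that passed correction. Of 24 correlations (6 pairs of genes in 4 stages, first GADD45B probe-set), 14 were positive, 1 had P at or below 0.05 and 0 had an adjusted p at or below 0.05. That one joined MGMT and CCND2 among the 16 fetuses (r = 0.51, permutation p = 0.0435, adjusted p = 0.729; rho = 0.62, permutation p = 0.0115, adjusted p = 0.276), and r was 0.40 without the 2 fetuses farthest from the median of MGMT. CDKN1A and CCND2, which shared the peak at 1 dpn, had r = 0.34 among the piglets (permutation p = 0.241, adjusted p = 0.947; rho = 0.54, permutation p = 0.047) and r = 0.50 among the weaners (permutation p = 0.0607, adjusted p = 0.729; rho = 0.46, permutation p = 0.0885). The same pair had r = 0.06 among fetuses (permutation p = 0.827) and 0.09 among young adults (permutation p = 0.752). The number of animals per stage does not allow weak relations to be seen.

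**Figure D5:**
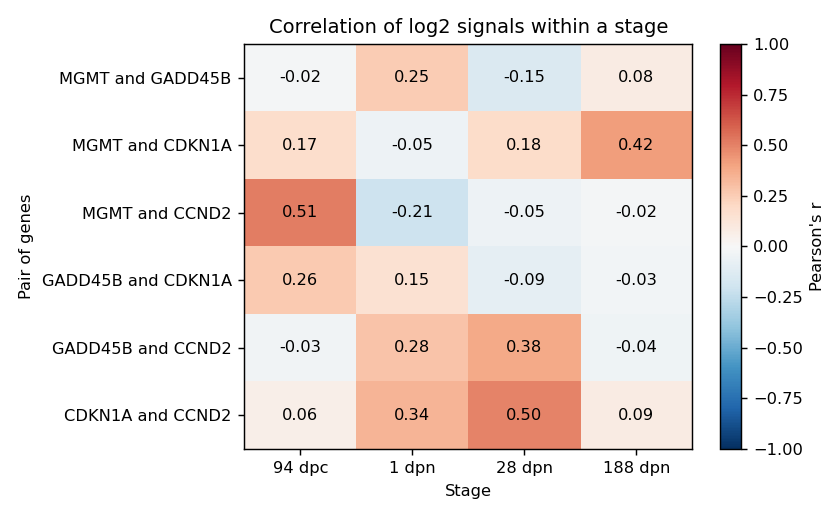
Pearson's r between the log2 signals of 2 genes (rows) over the animals of 1 stage (columns), in colour and as a printed value; GADD45B is the first probe-set. The highest value is 0.51, for MGMT and CCND2 at 94 dpc, and none passed correction over the 24 values.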

How the data were processed

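Liver RNA of 61 animals was measured on 61 arrays. The deposited values are signal intensities on a linear scale, 1 for each probe-set of an array, made by the authors with GCOS 1.1.1 (per the submitters' processing notes) and scaled to equal trimmed means (2% trimmed at each end). The normalised values, present calls and covariates of the study's own model (sex, mother, weight) were not used here, and 0 columns of no sample were used. Signals were log2 transformed. A probe-set was tested when it exceeded the array median in at least 50% of animals in 1 or both of the stages compared and had an SD above 0.25. Stages were compared pairwise in limma 3.58.1 (R 4.3.3) with stage as the only term. Storey q-values were computed over all probe-sets tested, and P and q at or below 0.05 were required. Because many probe-sets changed, q can be smaller than P. A gene of a list was represented by its probe-set of highest mean. Correlations were tested by permutation (100000 resamples, two-sided, SciPy 1.17.1) with Benjamini-Hochberg adjustment. Scripts were tested on simulated data.

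Symbols came from GEO's platform annotation: 10069 probe-sets have 1 symbol, 198 several and 13732 none. All members were found in the RefSeq gene table. Named list genes are the called genes of largest rise and fall per list and period, some of which were left out, besides exceptions stated; genes of like pattern are the 3 highest by r. The 4 genes, the lists and the tests were chosen with earlier results of these data known. Alternatives were Benjamini-Hochberg adjustment, 2 other scalings, 3 filters, a floor, a pseudocount of 16, a joint fit, array weights, 2 exclusions of arrays, another moderation and, for lists, means of probe-sets. P-values measure the spread between animals, whose number limits the precision. Littermates were counted as separate animals, so the P-values may be too small.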

Additional observations from a re-analysis of the deposited data

How the results depend on the processing

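Of 390 recomputed differences of the 5 probe-sets (6 pairs of stages, 13 alternatives), 363 kept direction and call, 17 gained and 6 lost the call and 4 turned. MGMT kept every call, and so did the other genes' differences from 94 dpc to 1 dpn and from 1 to 28 dpn apart from the second GADD45B probe-set. From 28 to 188 dpn the first GADD45B probe-set lost its call at 0.36 with Benjamini-Hochberg adjustment, at 0.36 without the intensity filter and at 0.38 when the 9 arrays with outlying control probes were dropped. Quantile normalisation gained calls for the second GADD45B probe-set (0.53) and CDKN1A (0.28) from 28 to 188 dpn, for CCND2 from 94 dpc to 28 dpn (0.47), for both GADD45B probe-sets from 94 dpc to 188 dpn (0.66 and 0.67) and for the second from 1 to 188 dpn (0.84); CCND2 lost its call from 28 to 188 dpn (-0.36) and turned from 94 dpc to 188 dpn (0.11). Subtracting array medians gained calls for the second GADD45B probe-set (0.58) and CDKN1A (0.40) from 28 to 188 dpn, for CCND2 from 94 dpc to 28 dpn (0.58), for GADD45B (0.86 and 0.78) and CDKN1A (0.75) from 94 dpc to 188 dpn and for the second GADD45B probe-set from 1 to 188 dpn (0.92). It turned the second GADD45B probe-set from 1 to 28 dpn (0.34), CDKN1A from 94 dpc to 28 dpn (0.35) and CCND2 from 94 dpc to 188 dpn (0.20), and CCND2 from 28 to 188 dpn (-0.38) and CDKN1A from 1 to 188 dpn (-0.29) lost their calls. For the second GADD45B probe-set the array median as a floor gave calls from 94 dpc to 1 dpn (-0.41) and to 28 dpn (-0.43), and array weights (0.52) and leaving out those 9 arrays (0.53) gave one from 1 to 188 dpn. The cause of these shifts was not tested. The share of higher probe-sets among all called moved from 38.5% to 47.2% (quantile) and 50.8% (medians subtracted) from 94 dpc to 1 dpn, from 41.2% to 51.4% and 67.6% to 28 dpn, and from 33.9% to 49.6% and 59.5% to 188 dpn; over all probe-sets tested the median differences were -0.16, -0.14 and -0.14 as deposited and 0.02, 0.27 and 0.07 with medians subtracted. Without the intensity filter 10541, 11650 and 6311 probe-sets were called in the same periods. All 72 recomputed correlations between members kept their side of the threshold. Of 456 recomputed list counts 87 moved by over 1.5 times, and of 689 recomputed differences of named list genes 667 kept direction and call, 4 gained and 18 lost it and none turned. No paired analysis was possible because the stages share no replicate numbers and the labels name no litters.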

Other observations

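The fetal signals of CDKN1A left a gap in the middle of their range. Of the 16 fetuses, 8 had signals of 542 to 809 and the other 8 of 1108 to 1628, with no value between, a step of 1.37-fold that took up 28.6% of the range on the log2 scale. The first GADD45B probe-set and CCND2 also had their widest gap near the middle at this stage. This GADD45B probe-set had 7 fetuses at 171 to 314 and 9 at 405 to 765, a step of 1.29-fold. CCND2 had 8 fetuses at 168 to 242 and 8 at 300 to 443, a step of 1.24-fold. MGMT, with 15 fetuses below its widest gap and 1 above, and the second GADD45B probe-set, with 14 and 2, did not. Any set of values has a widest gap, and whether these exceed those of other probe-sets was not tested. The labels give no sex, weight or litter of the fetuses, and the r of CDKN1A at this stage was 0.26 with GADD45B and 0.06 with CCND2. At 1 dpn CDKN1A and CCND2 each had 1 piglet below the widest gap (981 against 1329 for the next, and 200 against 321).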
